A study of Homo sapiens with 6 samples.

Results

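The DNAJ genes of classes A, B and C encode the J-domain proteins, the co-chaperones of HSP70. They were taken by symbol, as every gene named DNAJA, DNAJB or DNAJC followed by a number, which gave 38 of the 10779 genes in the deposited tables. Of these, 3 belong to class DNAJA, 9 to DNAJB and 26 to DNAJC. Translational efficiency was given for 31 of them among 8121 genes and ribosome occupancy per codon for 37 among 9570 transcripts, with 30 in both tables. DNAJC1 was only in the table of translational efficiency, and DNAJA3, DNAJB2, DNAJB5, DNAJC4, DNAJC22, DNAJC27 and DNAJC28 were only in the table of occupancy.

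The values come from ribosome profiling of HEK293, a human embryonic kidney cell line, in a single condition. The labels give a control siRNA for all 6 samples, which are 3 libraries of ribosome-protected fragments (RPFs) and 3 libraries of total RNA. Cells received cycloheximide for 3 min before lysis. No treated group is present, so each gene was compared with the typical gene of the same cells. The methods describe the procedure, from plated cells on, as carried out 3 times.

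A J-domain protein binds a client protein and HSP70 at the same time and stimulates HSP70 to hydrolyse ATP, which closes HSP70 on the client. The J domain does this through a loop that carries the tripeptide His-Pro-Asp (HPD). Class A and B members resemble the bacterial DnaJ in more than the J domain, whereas class C members share little but the J domain, and many of them act at a single place, such as the endoplasmic reticulum (ER), the mitochondrial import motor, clathrin-coated vesicles or the ribosome.

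Each of the 37 coding sequences (CDSs) in the occupancy table matched a single CDS of that symbol and length in GENCODE 44 on GRCh37, and each of the 37 encodes HPD exactly 1 time. The CDSs were 117 to 2244 codons long including the stop codon, and the His codon lay between codon 31 and codon 1332, within the first 100 codons in 25 of the 37. The bases around HPD are shown for members with high and with low ribosome occupancy there, and for DNAJA1 and DNAJB6, which have many reads. Each run begins 4 codons before His, covers 15 codons of coding exon from 5′ to 3′, and has the HPD codons in capitals.
DNAJB5: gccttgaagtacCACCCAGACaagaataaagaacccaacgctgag
DNAJC21: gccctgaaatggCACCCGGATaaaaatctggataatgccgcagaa
DNAJA3: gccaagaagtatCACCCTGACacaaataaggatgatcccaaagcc
DNAJB4: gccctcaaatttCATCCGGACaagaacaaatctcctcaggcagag
DNAJB12: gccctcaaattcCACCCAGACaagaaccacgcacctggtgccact
DNAJA1: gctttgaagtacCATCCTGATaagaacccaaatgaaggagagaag
DNAJB6: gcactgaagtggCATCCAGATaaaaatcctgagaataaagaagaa
DNAJC30: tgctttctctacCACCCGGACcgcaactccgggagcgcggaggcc
DNAJC9: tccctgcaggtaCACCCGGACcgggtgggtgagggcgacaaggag
DNAJC25: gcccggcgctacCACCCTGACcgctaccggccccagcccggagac
On GRCh37 the DNAJB5 run lies at chr9:34993312-34993356 on the plus strand, and the DNAJA1 run at chr9:33026570-33026614 on the plus strand. The run of DNAJA3 is at chr16:4487406-4487450 (plus), that of DNAJB4 at chr1:78470876-78470920 (plus), that of DNAJB6 at chr7:157155868-157155912 (plus) and that of DNAJC25 at chr9:114393904-114393948 (plus). On the minus strand lie those of DNAJB12 at chr10:74103137-74103181, DNAJC9 at chr10:75006789-75006833 and DNAJC30 at chr7:73097493-73097537. The DNAJC21 run crosses an intron and lies at chr5:34930003-34930021 and chr5:34933920-34933945 (plus). A proline codon follows 5 codons after His in DNAJA1 and DNAJB6 and 7 codons after it in DNAJB4, DNAJB5 and DNAJB12.

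Depth and shared sequence limit what these values can show. From the deposited values, 21 to 34161 in-frame CDS reads were recovered per DNAJ mRNA, with a median of 2239, and 34 of the 37 had at least 100. DNAJC4 (56 reads), DNAJC22 (21 reads) and DNAJC27 (75 reads) were below that and are left out of the positional summaries. The reads fall into 3 read sets per mRNA, one for each replicate, which could not be assigned to replicate numbers, so the range over the 3 read sets stands for the replicate error of the pooled occupancy. The depth of the total RNA libraries is unknown. Of the 37 mRNAs, 17 share at least one 30-nt stretch of CDS with a transcript of another gene, in 7 cases a pseudogene named after the DNAJ gene, and 4 share over 50% of them: DNAJC25-GNG10 (94.7%), DNAJB6 (84.1%), DNAJC19 (76.1%) and DNAJC9 (57.6%). Values of such genes are uncertain, because reads of shared sequence can be counted for either gene or for both. In the occupancy values, most codons that DNAJC25-GNG10 shares with DNAJC25 and GNG10 held the same reads in both transcripts, as given below. Most of those shared with DNAJC25 held no read, however.

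Translational efficiency (TE), the linear ratio of RPFs to total RNA, was above that of the typical gene for most DNAJ mRNAs. The median TE of the 31 mRNAs was 0.682, against 0.385 for all 8121 genes, and in the individual replicates it was 0.717, 0.684 and 0.645. With limma on log2(TE + 0.01), 23 of the 31 (74.2%) were called higher than the median of all values and 8 (25.8%) lower, at an FDR of 0.05 over all genes. Among all 8121 genes 44.7% were called higher and 44.6% lower. Because the replicates differ little, small distances pass this test, and a minimum distance of 2-fold was tested as well. By that test 11 of the 31 (35.5%) were over 2-fold higher and 2 (6.45%) over 2-fold lower, against 23.3% and 18.2% of all genes. Of the 23 higher mRNAs, DNAJC7 was no longer called without any 1 of the replicates (adjusted p = 0.0700, 0.0854 and 0.116 without replicate 1, 2 and 3, limma), and DNAJC18 was not called without replicate 2 (adjusted p = 0.115) or replicate 3 (adjusted p = 0.101).

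The highest TE was that of DNAJC8, a nuclear protein associated with the splicing machinery. Its TE was 4.28, 3.99 and 4.06 in replicates 1, 2 and 3 (mean 4.11 ± 0.152, SD, n = 3), which is 3.39 ± 0.05 (SE) above the median on the log2(TE + 0.01) scale. DNAJA1, a cytosolic partner of HSP70 in protein folding and import, followed with 3.73, 3.82 and 3.76 (3.77 ± 0.0442, SD, n = 3). The replicates of both lay far above 0.385 and did not overlap each other.

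The next 3 mRNAs were DNAJB9, DNAJC9 and DNAJA2. DNAJB9, an ER-luminal co-chaperone of BiP that is induced by the unfolded protein response, had a TE of 2.28, 2.19 and 2.26 (2.24 ± 0.0479, SD, n = 3). DNAJC9, which is also a histone chaperone, had 2.17, 2.13 and 2.03 (2.11 ± 0.0722, SD, n = 3). DNAJA2, the class A relative of DNAJA1, had 1.48, 1.49 and 1.54 (1.5 ± 0.0347, SD, n = 3). All of these mRNAs were called over 2-fold higher, with adjusted p-values of 3.13e-06 for DNAJA1, 3.26e-06 for DNAJC8, 8.12e-06 for DNAJB9, 1.08e-05 for DNAJC9 and 3.64e-05 for DNAJA2 (limma treat). DNAJB9 and DNAJA2 share no 30-nt CDS stretch with another gene, whereas 46.0% of the stretches of DNAJC8, 57.6% of those of DNAJC9 and 17.2% of those of DNAJA1 are shared.

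The lowest TE was that of DNAJC14, a protein of the ER membrane. It was 0.0834, 0.0921 and 0.0785 in the 3 replicates (0.0847 ± 0.00686, SD, n = 3), which is 2.06 ± 0.06 (SE) below the median on the log2 scale, and it was over 2-fold lower (adjusted p = 5.44e-05, limma treat), although 45.4% of its 30-nt CDS stretches are shared with another gene. DNAJC16, also of the ER membrane, had 0.116, 0.140 and 0.149 (0.135 ± 0.0169, SD, n = 3) and was over 2-fold lower with an adjusted p of 0.00419 (limma treat), a call that was lost with a pseudocount of 0.1 (adjusted p = 0.646). The mean TE of DNAJC8 was 48.5 times that of DNAJC14, so the DNAJ mRNAs spanned a wide range.

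DNAJC25, DNAJC6 and DNAJB12 were called lower than the median gene but did not pass the test of a 2-fold distance. DNAJC25 had a TE of 0.137, 0.189 and 0.160 (0.162 ± 0.0258, SD, n = 3), a mean of 0.434 times the median gene with an adjusted p of 0.0975 for the 2-fold limit (limma treat), and it passed that limit without replicate 2 (adjusted p = 0.0265). DNAJC6 encodes auxilin, which recruits HSC70 to uncoat clathrin-coated vesicles, and its TE was 0.210, 0.191 and 0.199 (0.20 ± 0.00918, SD, n = 3). DNAJB12, an ER membrane protein of ER-associated degradation and the lowest of class B, had 0.310, 0.222 and 0.224 (0.252 ± 0.0503, SD, n = 3).

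Among the stress-induced members, DNAJB1, the main inducible HSP40 of the cytosol, had a TE of 0.309, 0.317 and 0.267 (0.297 ± 0.0270, SD, n = 3) and was called lower than the median gene (adjusted p = 0.00444, limma). DNAJC3, an ER-luminal co-chaperone of BiP known as an inhibitor of eIF2α kinases, had 0.717, 0.684 and 0.645 (0.682 ± 0.0356, SD, n = 3) and was called higher (adjusted p = 6.82e-05, limma). All 3 replicates of DNAJC3 lay above all 3 of DNAJB1, and those of DNAJB9 lay above both. The largest spread was that of DNAJC2, the ribosome-associated co-chaperone also known as MPP11, with 1.04 in replicate 1 and 0.716 and 0.706 in the others (coefficient of variation 23.2%, against a median of 5.29% over the 31 mRNAs).

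**Figure D1:**
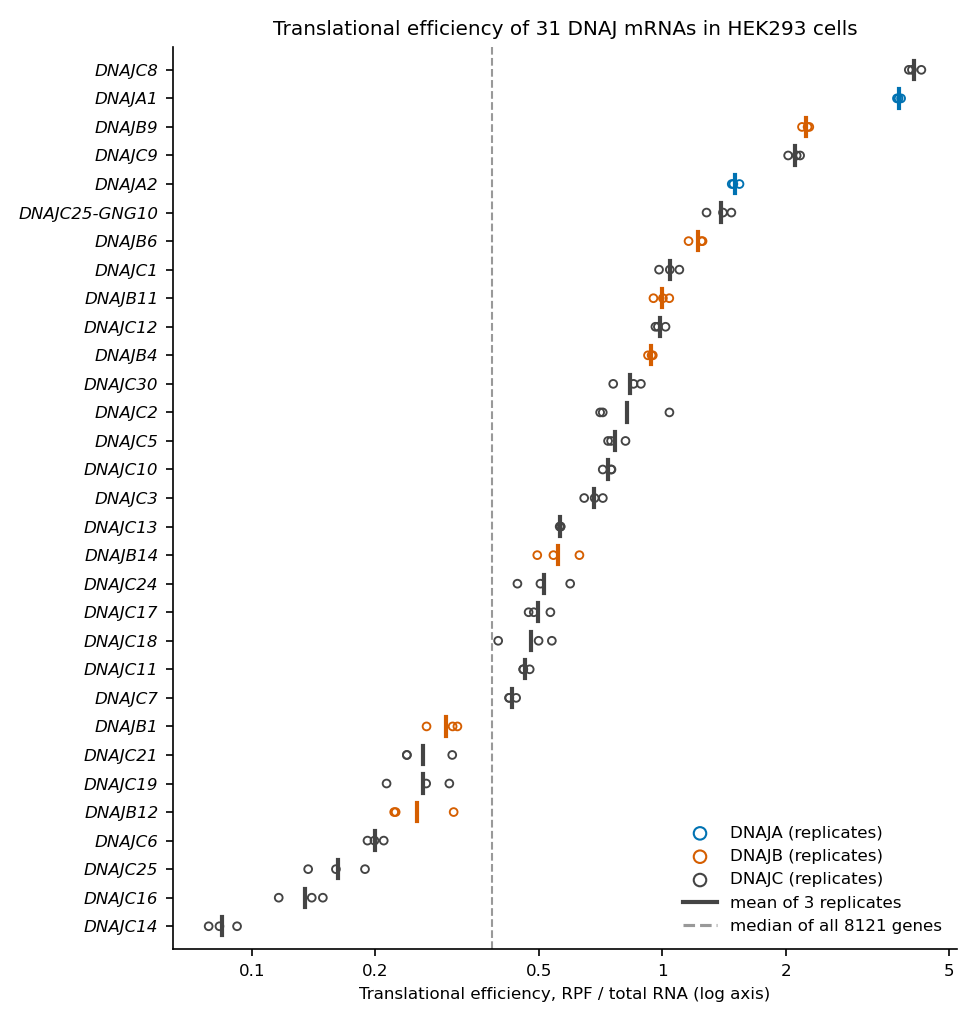
Translational efficiency (RPF over total RNA, log axis) of the 31 DNAJ mRNAs, ordered by mean. Open circles are the 3 replicates, bars their mean, colours the class, and the dashed line is the median of all 8121 genes (0.385). The mRNAs run from 0.0847 for DNAJC14 to 4.11 for DNAJC8, with 23 means above the line.

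The remaining mRNAs lay between these ends. In order of mean TE, the replicates of neighbouring mRNAs overlapped in 15 of the 30 neighbouring pairs, so the order is clear from DNAJC8 down to DNAJC1, while DNAJC1 to DNAJC12, DNAJC30 to DNAJC3, DNAJC13 to DNAJC11, DNAJB1 to DNAJB12, and DNAJC25 and DNAJC16 overlap with their neighbours. Over 2-fold higher as well were DNAJC25-GNG10 (1.39), DNAJB6 (1.22), DNAJC1 (1.04), DNAJB11 (0.999), DNAJC12 (0.986) and DNAJB4 (0.938), all as mean TE. DNAJB6 is known for holding back the aggregation of polyglutamine proteins, and DNAJC1 and DNAJB11 are ER co-chaperones of BiP. DNAJB4 lost the 2-fold call with a pseudocount of 0.1 (adjusted p = 0.0663, limma treat). Mean TE was 0.833 for DNAJC30, 0.767 for the vesicle co-chaperone DNAJC5, 0.740 for the ER disulfide reductase DNAJC10, 0.564 for the endosomal DNAJC13, 0.556 for DNAJB14, 0.515 for DNAJC24, which takes part in diphthamide synthesis, 0.498 for DNAJC17, 0.479 for DNAJC18, 0.464 for the mitochondrial DNAJC11 and 0.429 for DNAJC7, and each of these mRNAs was called higher. DNAJC21, a factor of 60S ribosome biogenesis (0.262), and DNAJC19, a subunit of the mitochondrial import motor (0.261), were called lower.

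Counts by class and location are read against the shares over all genes, 44.7% called higher, 44.6% lower, 23.3% over 2-fold higher and 18.2% over 2-fold lower. By class, both DNAJA mRNAs with a TE were over 2-fold higher. Of the 7 DNAJB mRNAs 5 were higher, 4 of them over 2-fold, and 2 lower, with a median TE of 0.938. Of the 22 DNAJC mRNAs 16 (72.7%) were higher and 6 (27.3%) lower, with a median of 0.540. Of these, 5 (22.7%) were over 2-fold higher, close to the share of all genes, and 2 (9.09%) over 2-fold lower. Grouped by where the proteins act, the 6 mRNAs of cytosolic folding had a median TE of 1.08 with 5 higher and 1 lower, and the 5 of the nucleus and ribosome had 0.821 with 4 higher and 1 lower. The 10 of the ER had a median of 0.619 with 7 higher and 3 lower. Of these 10, 3 (30%) were over 2-fold higher, among them DNAJB9. The 2 (20%) over 2-fold lower were near the share of all genes (18.2%). Medians were 0.464 for the 3 mitochondrial mRNAs and 0.564 for the 3 of vesicles. These groups overlapped widely, and differences between them were not tested.

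The HSP70 machinery around the DNAJ proteins was read from a list of 32 genes, of which 25 had a TE. Of these, 17 were called higher than the median gene and 7 lower, against 44.7% and 44.6% of all genes, with a median TE of 0.777. By the 2-fold test 12 of the 25 (48.0%) were higher and 2 (8.0%) lower, against 23.3% and 18.2% of all genes. All 6 HSP70 genes in the table were over 2-fold higher (median 1.93). The highest was HSPA5, the ER HSP70 known as BiP, with 8.71, 9.22 and 10.2 (9.36 ± 0.734, SD, n = 3). Sequence shared between HSP70 genes was not checked, so their values carry that uncertainty. HSPA2 had the most variable TE of the 6 (coefficient of variation 23.5%). Its mean ribosome occupancy per CDS codon was 6.74, against a median of 0.0445 over transcripts with at least 100 CDS reads. The nucleotide exchange factors, which release ADP from HSP70, had 4 of 9 (44.4%) higher and 4 lower, which is near the shares over all genes. BAG2 had the highest TE of them with 8.96, 8.45 and 8.05 (8.49 ± 0.453, SD, n = 3). SIL1, the exchange factor of BiP, had 0.115, 0.0983 and 0.187 (0.133 ± 0.0472, SD, n = 3), and BAG1 had 0.0589, 0.0598 and 0.0532 (0.0573 ± 0.00357, SD, n = 3). Both were over 2-fold lower (adjusted p = 0.0435 and 1.11e-05, limma treat).

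Mean CDS occupancy, the in-frame RPFs per codon divided by the TPM of the mRNA with the replicates combined by the authors, gave a second reading of ribosome load. The median over the 34 DNAJ mRNAs with at least 100 CDS reads was 0.0588, against 0.0445 over 8577 such transcripts, and 23 of the 34 lay above that median. The highest was DNAJC18, an ER membrane co-chaperone, with 0.176 (0.145 to 0.196 over the read sets). It was followed by DNAJA2 with 0.130 (0.124 to 0.134), DNAJA1 with 0.129 (0.124 to 0.136), DNAJB9 with 0.125 (0.120 to 0.131) and DNAJC12, a co-chaperone of the aromatic amino acid hydroxylases, with 0.121 (0.119 to 0.125). The ranges of these last 4 overlap with those of their neighbours, and DNAJC18, DNAJA2 and DNAJA1 lie above the 90th percentile of the transcripts (0.126). The lowest was DNAJC14 with 0.00548 (0.00532 to 0.00566), then DNAJB2 with 0.0234 (0.0218 to 0.0242) and the mitochondrial DNAJA3 with 0.0243 (0.0242 to 0.0245). DNAJC14 was thus lowest by both measures and far below the other 33 mRNAs.

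What a single read is worth in each mRNA also gives its level in total RNA relative to the median transcript, because the authors divided by TPM. The read sets are ordered by this same worth, and each was set against the median transcript of its rank. The ranges of these levels can therefore understate the replicate error. DNAJC8 mRNA was at 11.4 times the median transcript (10.4 to 12.3 over the read sets), DNAJA1 at 7.83 times (7.49 to 8.31) and DNAJC7, a cytosolic co-chaperone with tetratricopeptide repeats, at 6.71 times (6.27 to 6.99). DNAJC14 mRNA was at 3.21 times (3.03 to 3.30), so few ribosomes were found for an mRNA that was not rare by this value. The value is uncertain, because 45.4% of the 30-nt CDS stretches of DNAJC14 are shared with another gene. DNAJC18, by contrast, was at 0.407 times (0.378 to 0.444) and DNAJB9 at 0.519 times (0.468 to 0.569). The lowest among the 34 was DNAJB5 at 0.0877 times (0.0757 to 0.104). For DNAJC2 the 3 read sets gave 1.23 to 2.35 times, and its TE was also the most variable of the 31.

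The 2 measures ordered the DNAJ mRNAs only in part alike. Over the 30 mRNAs with both values the Spearman coefficient was 0.452, and over the 6385 genes with both it was 0.671. These points share the RPF and total RNA libraries. The ratio of TE to occupancy was 7.46 for the median gene and had a Spearman coefficient of -0.0520 with CDS length over all genes. It was above the 95th percentile of all genes (25.6) in 4 DNAJ mRNAs, DNAJC25-GNG10 (51.0), DNAJC8 (48.1), DNAJC9 (46.0) and DNAJA1 (29.2). All 4 share CDS stretches with other genes, between 17.2% and 94.7% of them, while DNAJB6 and DNAJC19 share more than DNAJC8 and had ratios of 12.6 and 4.86. The part of shared sequence in these TE values was not tested. The lowest ratios were those of DNAJC21 (2.26) and DNAJC18 (2.71), below which 3.99% and 7.31% of the genes lay. Neither of them shares a 30-nt CDS stretch with another gene. Without the 4 mRNAs that share over 50% of their CDS, 20 of 27 were called higher and 7 lower, with a median TE of 0.564.

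**Figure D2:**
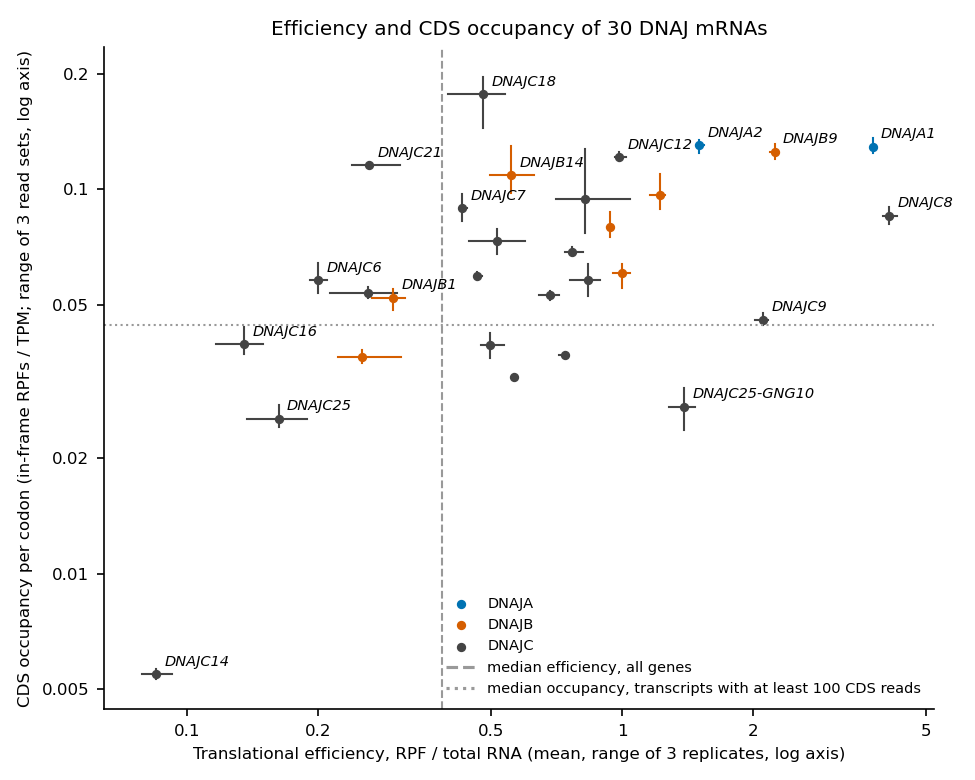
Mean CDS occupancy per codon (in-frame RPFs over TPM, log axis) against mean translational efficiency (log axis) of the 30 DNAJ mRNAs in both tables. Horizontal lines are the range of the 3 replicates and vertical lines the range of the 3 read sets. The broken line is the median efficiency of all genes, and the dotted line the median occupancy of transcripts with at least 100 CDS reads. DNAJC14 lies alone at the lower left, and DNAJC25-GNG10 has a high efficiency (1.39) at a low occupancy (0.0272).

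DNAJC25-GNG10 is a read-through transcript that joins the start of DNAJC25 to the end of GNG10, a G-protein gamma subunit, on chromosome 9. Its CDS of 154 codons begins with 112 codons of DNAJC25 and ends with 43 codons of GNG10. The codon at the junction is counted in both. Only 50 of its 2208 CDS reads lay in the DNAJC25 stretch, and 97.7% lay in the GNG10 stretch. In 108 of the 112 DNAJC25 codons and in 38 of the 43 GNG10 codons it had the same reads per read set as the gene it shares them with. Most of the 112 codons held no read in this transcript, and empty codons agree without any shared read. Over these codons DNAJC25 had 62 reads, against 50. Over the 43 codons GNG10 had 2199 reads, against 2158. The TE of DNAJC25-GNG10, 1.28, 1.47 and 1.41, lay between those of DNAJC25 (mean 0.162) and GNG10 (5.86, 6.84 and 6.68). Its positional values therefore describe GNG10 sequence for the most part. It is left out of the HPD values, and the other positional medians include it.

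Ribosome occupancy was raised around the HPD motif in most DNAJ mRNAs. Occupancy at each codon was divided by the mean of its CDS, and the 12 codons from 1 before His to 10 after it were averaged, a window chosen after the positions had been seen. Over 33 mRNAs (without DNAJC25-GNG10, whose HPD is that of DNAJC25) the median was 1.87 times the CDS mean. It was above 1 in 26 of the 33 (78.8%) and above 1 in each of the 3 read sets in 22, and it was above 2 in 12 (36.4%). At the 457 HPD tripeptides encoded in 431 other genes the median was 0.951, with 48.6% above 1 and 19.5% above 2. The window was set on the DNAJ profiles and so favours them in this comparison. The other tripeptides were also not matched to the DNAJ ones for their position in the CDS.

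The largest values were those of DNAJB5 with 7.78 times the CDS mean (6.38 to 9.06 over the read sets, 47 reads in the window), DNAJC16 with 6.12 (4.89 to 6.90, 123 reads) and DNAJC21 with 4.26 (3.58 to 4.69, 692 reads). DNAJA3 had 4.22 (3.57 to 4.88, 643 reads), DNAJB4 4.11 (3.51 to 4.41, 206 reads) and DNAJB12 3.66 (3.23 to 4.09, 237 reads). Among the mRNAs with the most reads, DNAJA1 had 2.72 (2.63 to 2.80, 2796 reads), DNAJB6 2.54 (2.38 to 2.64, 1210 reads), DNAJC8 1.93 (1.67 to 2.11, 1888 reads) and DNAJC7 1.87 (1.78 to 1.93, 1130 reads). Not all members had it. The window of DNAJC9 held 16 reads, or 0.0676 times the CDS mean (0.0383 to 0.0854), and those of DNAJC25 and DNAJC30 held 1 read each. DNAJC19 (0.344), DNAJB14 (0.511), DNAJC24 (0.613) and DNAJA2 (0.825) were also below 1 in all 3 read sets.

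Within the motif the codons differed. At His the mean relative occupancy over the 33 mRNAs was 0.256 and 1 mRNA was above 2. At Pro, the next codon, the mean was 2.90 and 14 of the 33 were above 2, and at Asp it was 2.48 with 14 above 2. In the other genes' HPD tripeptides the means were 0.590, 1.45 and 1.44. Over all codons of the other transcripts they were 0.977 for His, 0.796 for Pro and 1.27 for Asp. The other genes' HPD tripeptides also had raised means at the codons 4 and 5 after His, 2.29 and 1.86, with 31.1% and 25.8% above 2. In the DNAJ mRNAs the means there were 1.66 and 3.20, with 21.2% and 39.4% above 2. A rise after His was thus not confined to the DNAJ mRNAs. The highest mean of the DNAJ mRNAs, 5.09, was at the codon 7 after His, where 14 of the 33 were above 2. The median there was 1.41. The mean rested in large part on a few mRNAs, DNAJB5 at 53.5 (25 reads), DNAJB12 at 25.8 (138 reads), DNAJC16 at 16.4 (26 reads), DNAJC21 at 10.8 (147 reads) and DNAJC14 at 10.7 (14 reads). A proline codon stands at this position in 11 of the 33 mRNAs, among them DNAJB5, DNAJB12, DNAJC14 and DNAJC16 but not DNAJC21. Of the 11, 5 were above 2 there, as were 9 of the 22 with another codon.

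At the codon 5 after His, occupancy and the codon went together more closely. The mRNAs with proline there were DNAJA1, DNAJA2, DNAJB2, DNAJB6, DNAJB11, DNAJC5, DNAJC10, DNAJC12, DNAJC13 and DNAJC17, and 9 of these 10 were above 2 with a median of 7.27 times the CDS mean. Of the 23 with another codon 4 were above 2, with a median of 0.433. This split was made after the profile had been seen and was not tested. The sources used here do not state whether the offset of 13 nt points to the P or the A site, so positions may be shifted by a codon.

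**Figure D3:**
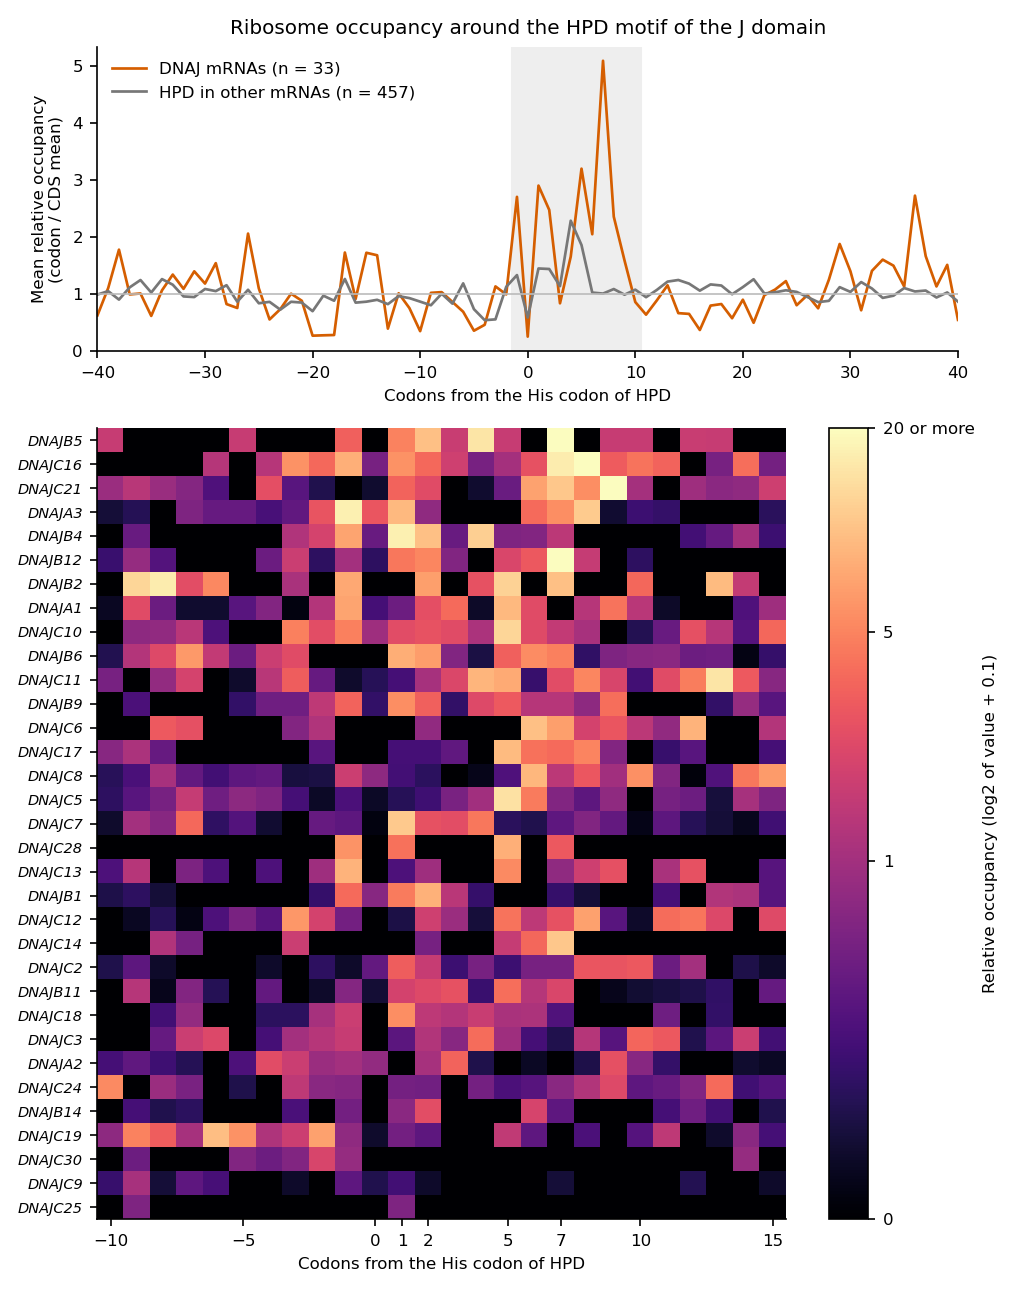
Ribosome occupancy around HPD. The upper panel gives the mean occupancy relative to the CDS mean by codons from His for 33 DNAJ mRNAs and for 457 HPD tripeptides of other mRNAs, with the 12-codon window shaded. The lower panel gives each DNAJ mRNA from 10 codons before to 15 after His, ordered by its value in the window, on a log2 colour scale that ends at 20. The DNAJ line peaks at 5.09 at codon 7 after His, and the rows of DNAJC30, DNAJC9 and DNAJC25, with 0.0706, 0.0676 and 0.0491 in the window, stand last.

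Single codons held a large share of the CDS reads in some mRNAs. The median share of the most occupied codon was 4.8% over the 34 mRNAs, against 4.65% over 8577 transcripts, and that codon lay in the HPD window in 5 of the 34 (DNAJB4, DNAJB5, DNAJC8, DNAJC16 and DNAJC21). The largest share was 17.3% in DNAJC25-GNG10 (16% to 20.7% over the read sets, codon 151), in its GNG10 stretch. DNAJB5 had 14.9% at codon 39 (11.7% to 18.0%, 25 of 168 reads), DNAJC19 13% at codon 114 (12.3% to 14.8%, 211 of 1626 reads), DNAJC5 11.8% at codon 28 (10.0% to 13.4%, 467 of 3950 reads) and DNAJC30 9.81% at codon 162 (8.44% to 12.4%, 37 of 377 reads). In these last 4 mRNAs the same codon was the highest in all 3 read sets. DNAJC5 encodes cysteine string protein, a co-chaperone of synaptic vesicles, and its codon 28 is a serine codon 15 codons before the His of HPD. Codon 114 of DNAJC19 is an alanine codon 3 codons before the stop codon, in a CDS that shares 76.1% of its 30-nt stretches with other genes. The bases around the codons of DNAJC5, DNAJC19 and DNAJC30 are shown with the codon in capitals.
DNAJC5: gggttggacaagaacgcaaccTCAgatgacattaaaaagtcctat
DNAJC19: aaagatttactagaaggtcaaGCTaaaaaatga
DNAJC30: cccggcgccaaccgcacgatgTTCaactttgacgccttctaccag
They lie in coding exons of GRCh37 at chr20:62559759-62559803 (plus), chr3:180702428-180702460 (minus) and chr7:73097247-73097291 (minus).

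Reads were spread unevenly along many of the CDSs. The ratio of reads in the last 75 codons to those in the first 75 had a median of 0.899 over 33 DNAJ mRNAs, 0.852 without DNAJC25-GNG10, and 0.997 over 8036 transcripts with at least 150 codons and 100 CDS reads. DNAJC25-GNG10 had 50.3 (44.7 to 62.4), as its GNG10 end holds nearly all of its reads. DNAJB14, an ER membrane protein related to DNAJB12, had 7.68 (6.35 to 8.76 over the read sets), above 96.3% of the transcripts, and DNAJC25 had 5.09 (4.50 to 7.14). At the other end, DNAJC5 had 0.203 (0.191 to 0.215), below which only 4.79% of the transcripts lay, DNAJC14 had 0.225 (0.0769 to 0.444) and DNAJC16 had 0.325 (0.276 to 0.357). In DNAJC5, 82.7% of the CDS reads lay in the first 50% of the codons (82.0% to 83.3%). DNAJC14 and DNAJC16, the mRNAs with the lowest TE, had 68.8% (65.8% to 70.4%) and 56.8% (56.6% to 57.1%) there. The sequence that DNAJC14 shares with another gene lies between codons 371 and 695 of its 703. Its values here thus set unshared early codons against later codons that are largely shared.

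**Figure D4:**
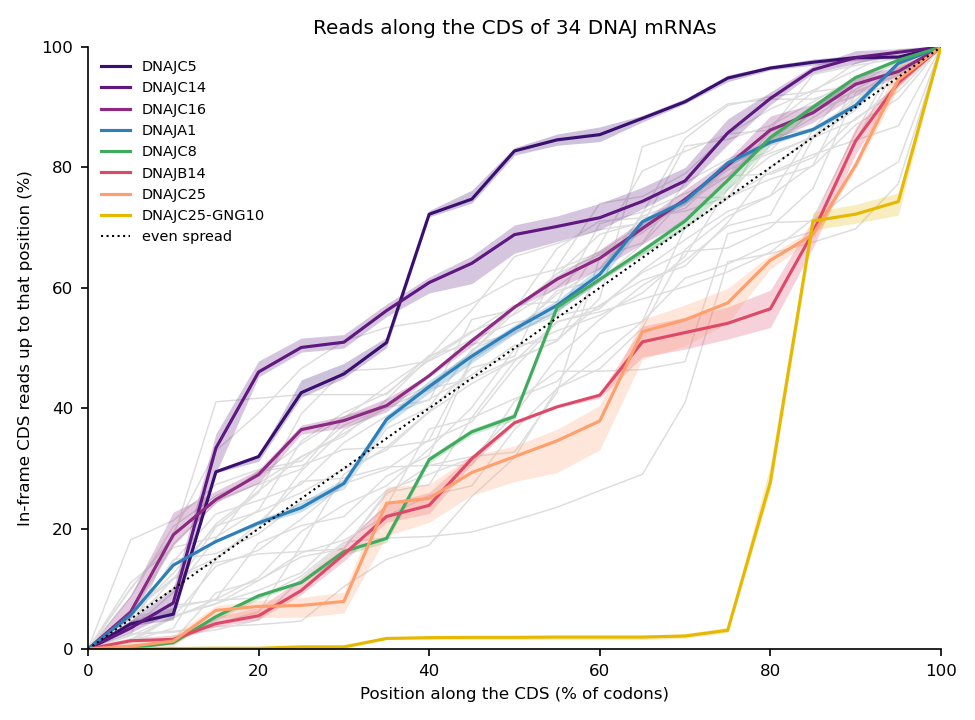
Share of in-frame CDS reads (%) up to each position along the CDS (% of codons) for the 34 DNAJ mRNAs with at least 100 CDS reads. Coloured lines are named mRNAs with the range of the 3 read sets as a band, grey lines the others, and the dotted line an even spread. DNAJC5 has 82.7% of its reads in the first 50% of the CDS, and DNAJC25-GNG10 has 1.95%.

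In the in-frame reads of the 5′UTR, DNAJC12 stood apart from the other DNAJ mRNAs. The occupancy values hold only reads in frame with the CDS, so upstream translation in other frames was not counted. The paper reports that the majority of upstream open reading frames were out of frame with the CDS. The median 5′UTR share of in-frame reads was 0.360% over the 34 mRNAs and 0.384% over 8577 transcripts. Without DNAJC25-GNG10 it was 0.424%, and without the 4 mRNAs that share over 50% of their CDS it was 0.286%, so it lay on either side of the value for all transcripts. In DNAJC12, 1430 5′UTR reads made up 14.4% of the in-frame reads (13.9% to 14.9% over the read sets), above 96.7% of the transcripts. Of these, 1035 (72.4%) lay at a single codon, 36 codons before the start codon, with 431, 359 and 245 reads in the 3 read sets. In the GENCODE transcript that matches the CDS this codon is an ATG in frame with the CDS, and a stop codon follows 6 codons later, 30 codons before the start. The stretch from this ATG to that stop held 1237 reads. The next codons were a CTG 32 codons before the start, inside the same stretch, with 148 reads, and a CCT 14 codons before the start with 109. The CDS itself held 8510 reads, its start codon 0.153% of them, and its TE of 1.02, 0.962 and 0.976 was over 2-fold higher than the median gene (adjusted p = 0.00188, limma treat). The 5′UTR in the deposited table differs in length from that of GENCODE, so these codon names hold only where both share the sequence.

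The other mRNAs with a high 5′UTR share had far fewer reads there. DNAJC19 had 3.73% (2.81% to 4.91%, 63 reads), DNAJC10 3.14% (2.87% to 3.41%, 216 reads), DNAJC28 3.05% (0 to 5.71%, 4 reads) and DNAJB4 2.54% (1.64% to 4.10%, 36 reads). In DNAJC10 the codon with the most reads was a TTG 65 codons before the start with 92 reads, followed by an in-frame stop 11 codons later. DNAJC4 (11 5′UTR and 56 CDS reads) and DNAJC22 (10 5′UTR and 21 CDS reads) have higher shares, 16.4% and 28.6%, but were below the limit of 100 CDS reads. Among the 34, no in-frame 5′UTR read was recovered for DNAJA3, DNAJC8, DNAJC11, DNAJC17 and DNAJC30, and their reads in other frames are unknown. For DNAJC8, with 20715 in-frame reads and a 5′UTR of 7 codons, a count of 0 allows a share of up to 0.0145%, which covers counting error only. DNAJA1 had 12 5′UTR reads against 34161 in the CDS, a share of 0.0351%.

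**Figure D5:**
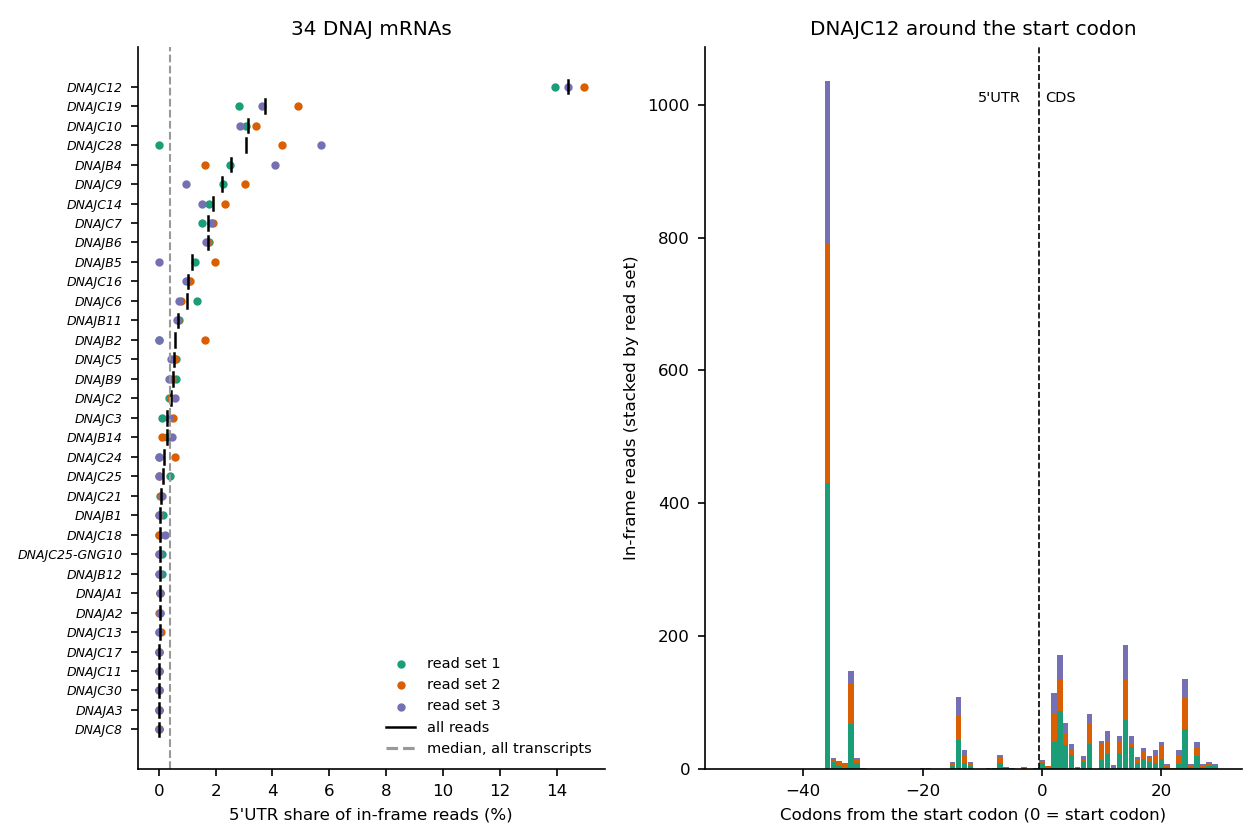
Left, 5′UTR share of in-frame reads (%) of the 34 DNAJ mRNAs, with points for the 3 read sets, bars for all reads and the dashed line for the median of 8577 transcripts (0.384%). Right, in-frame reads of DNAJC12 by codon around the start codon, stacked by read set. DNAJC12 has 14.4% of its in-frame reads in the 5′UTR, 1035 of them at the ATG 36 codons before the start.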

How the data were processed

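RPFs and total RNA of HEK293 cells were measured in 3 replicates each. The authors removed adapters and duplicates, aligned RPFs with bowtie and total RNA with Hisat2 to the hg19 transcriptome, and assigned RPFs 28 to 30 nt long to codons by a 13-nt offset. The submitters' processing notes list cutadapt 1.16, Bowtie 1.1.2, TopHat2 2.1.1 and HTSeq 0.9.1.

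The deposited efficiency table holds a linear ratio per replicate, and the sources used here do not give its formula. The occupancy table, as deposited, holds in-frame RPFs, normalized by the authors for library size and divided by TPM, per codon with the replicates combined. Its values are whole multiples of 3 steps per transcript (relative tolerance 5e-14), 1 step for each replicate. Reads were recovered from them for 9548 of 9570 transcripts, in all 51497658 reads, and 99.8% of the values above 0 were resolved. All 37 DNAJ mRNAs were resolved fully. The read sets of a transcript are ordered by the worth of a read, so their order can differ between transcripts. The recovery was tested on simulated data. For 31 transcripts a CDS list split over several lines was joined again.

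TE was tested with limma 3.58.1 (R 4.3.3) on log2(TE + 0.01), gene by gene against the overall median, and with limma treat for a distance over 2-fold, both with Benjamini-Hochberg adjustment over 8121 genes at an FDR of 0.05 and checked on simulated data. Python 3.11.15 and GENCODE 44 on GRCh37 (the build of hg19) were used for the rest, and 8641 transcripts matched a single CDS by symbol and length. The p-values measure the spread between these 3 repeats of the procedure.

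The DNAJ genes, the lists of locations and partners, and the rule for named genes were chosen with earlier results of these data known. The rule took the 5 highest and 5 lowest mRNAs by TE, the ends of classes A and B, DNAJB1, DNAJB9 and DNAJC3, the extremes of each positional measure, and the 2 highest and 2 lowest partners. The HPD window was chosen after its values had been seen. Alternatives were another pseudocount, each replicate left out, a replicate block, a limit of 100 CDS reads, other windows and, added after seeing the data, the omission of mRNAs with shared sequence. Per the labels, total RNA was taken from the lysate that gave the RPFs, and each deposited ratio already joins both, so the replicate numbers add no further pairing. The total RNA counts themselves were not used here. Protein sequences were not used here. The bases around HPD are printed for 10 of the 37 DNAJ mRNAs, and those of the others are not reported here.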

Additional observations from a re-analysis of the deposited data

Results flagged for a closer look

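The 3′UTR values of the occupancy table entered none of the comparisons above. In-frame 3′UTR reads exceeded the 3 that a count of 0 allows in 12 of the 37 DNAJ mRNAs. How many of all transcripts exceed this limit was not counted, so the 12 cannot be called many or few. The limit also depends on depth, and the 34 deeper DNAJ mRNAs had a median of 2992.5 CDS reads, against 1789 over 8577 transcripts. As a share of in-frame reads, 21 of the 34 were above the median of these transcripts and 5 above their 90th percentile (0.709%). DNAJC5 had the most, 64 reads or 1.59% of its in-frame reads (1.52% to 1.66% over the read sets), against a median of 0.0204% over 8577 transcripts. Of these 64 reads, 32 lay at a single codon 21 codons after the stop codon, with 12, 11 and 9 in the 3 read sets, an ATG in the matching GENCODE transcript, with no in-frame stop codon before it in the 3′UTR. DNAJB12 had 22 reads, or 0.973% (0.919% to 1.02%). The others were DNAJC3 with 13 reads, DNAJC24 with 11 reads, DNAJC25-GNG10 with 11 reads, DNAJC18 with 9 reads, DNAJC14 with 8 reads, DNAJC16 with 7 reads, DNAJC30 with 5 reads, and DNAJB1, DNAJC11 and DNAJC22 with 4 reads each. How these reads arose was not tested.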

How the results depend on the processing

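The counts of DNAJ mRNAs called higher (23) and lower (8) ranged from 21 to 22 and stayed at 8 when a replicate was left out, and those over 2-fold higher (11) and lower (2) were 11 and ranged from 2 to 3. Partners called higher (17) ranged from 16 to 17 and those called lower stayed at 7. The replicate block, with the median of each replicate removed, gave 23, 8, 11 and 2 DNAJ mRNAs and 17 and 7 partners, the main counts. A pseudocount of 0.1 left 1 mRNA over 2-fold lower, since it compresses low values. Among the alternative values for single mRNAs, 180 kept direction and call, and 5 kept the direction but lost the call, those of DNAJC7 and DNAJC18 named above. The median TE of 0.682 ranged from 0.665 to 0.700 without single replicates, was 0.623 with at least 100 CDS reads, a limit that removes DNAJC1, which has no occupancy, was 0.623 without DNAJC25-GNG10, and was 0.564 without mRNAs that share over 50% of their CDS. The median CDS occupancy of 0.0588 became 0.0574 without the first 15 and last 5 codons, 0.0143 as a median per codon, 0.0594 without DNAJC25-GNG10 and 0.0599 without the shared mRNAs. The median 5′UTR share of 0.360% became 0.0976% without the 5 codons next to the start codon, 0.424% without DNAJC25-GNG10 and 0.286% without the shared mRNAs. The median ratio of last to first codons of 0.899 became 0.796 with windows of 50 codons, 0.960 without the first 15 and last 5 codons, and 0.852 without DNAJC25-GNG10 as well as without the shared mRNAs. Where no construction is named, the cause was not tested. Depth limits the positional values. The lowest correlation between the codon profiles of 2 read sets had a median of 0.875 over the 29 mRNAs with at least 1000 CDS reads and of 0.379 over the 8 others.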
